A study of Mus musculus with 8 samples.

Results

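The 4 connexin genes of the heart, Gja1, Gja4, Gja5 and Gjc1, were taken by gene symbol from a table of 17191 genes, and all 4 members were present. RNA of whole mouse hearts had been sequenced 4 weeks after transverse aortic constriction (TAC), surgery that puts the left ventricle under pressure by tightening the aorta. The groups were 4 libraries of STAT3 S727A mice, which carry alanine in place of a serine that is phosphorylated in the transcription factor STAT3, and 4 of wild-type (WT) mice. Both groups had TAC, so only genotypes are compared. The labels give neither the age, sex and strain of the mice, nor whether a library is 1 animal or a pool, so the p-values rest on the spread among these libraries only.

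Connexins are the subunits of gap junctions. A connexin hexamer in the membrane of a cell docks to a hexamer of its neighbour, and the channel so formed passes ions and small molecules. In the ventricle these channels sit mostly in the intercalated discs, where they carry the action potential from myocyte to myocyte. Gja1 encodes Cx43, the main connexin of working ventricular myocytes, which fibroblasts and other cells also make. Gja5 encodes Cx40, found in atrial myocytes, the fast conduction system and arterial endothelium. Gja4 encodes Cx37, a connexin of endothelium, and Gjc1 encodes Cx45, which is known from the nodes, the conduction system and smooth muscle.

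Total counts ran from 10577619 to 13305124 per library. The heart label was borne out by the 14 listed myocyte genes, which were all detected and summed to between 90420 and 122000 CPM (counts scaled to a common library size, with TMM factors) in each library. Y-linked genes were close to absent in S727A 4 and WT 4, with 9 and 6 counts against 1940 to 2225 in the other libraries. Transcripts of the airway list summed to 1928 counts in WT 1 and 969 in WT 4, against 39 to 107 elsewhere. Stat3 averaged 164 ± 6.74 CPM in the mutant libraries against 201.0 ± 23.2 CPM in the WT ones (SD, n = 4 each), and since the mutation changes a codon, this level does not check the labels.

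Levels of the connexins were compared with each other per length, as FPKM (fragments scaled by transcript length and library size). Gja1 stood far above the rest at 126 ± 19.9 FPKM over all libraries (SD, n = 8), rank 567 of 17191 genes. Gja4 followed at 11.9 ± 2.29 FPKM and Gjc1 at 11.8 ± 1.48 FPKM (SD, n = 8). These neighbours in the order did not differ beyond their spread, since Gja4 lay above Gjc1 in 4 of 8 libraries. Gja5 was the least abundant at 3.07 ± 0.573 FPKM (SD, n = 8) and lay below Gja4 and Gjc1 in all 8 libraries. Within a library, the FPKM of Gja1 was 7.21 to 14.3 times that of Gja4 and 8.34 to 13.0 times that of Gjc1.

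**Figure D1:**
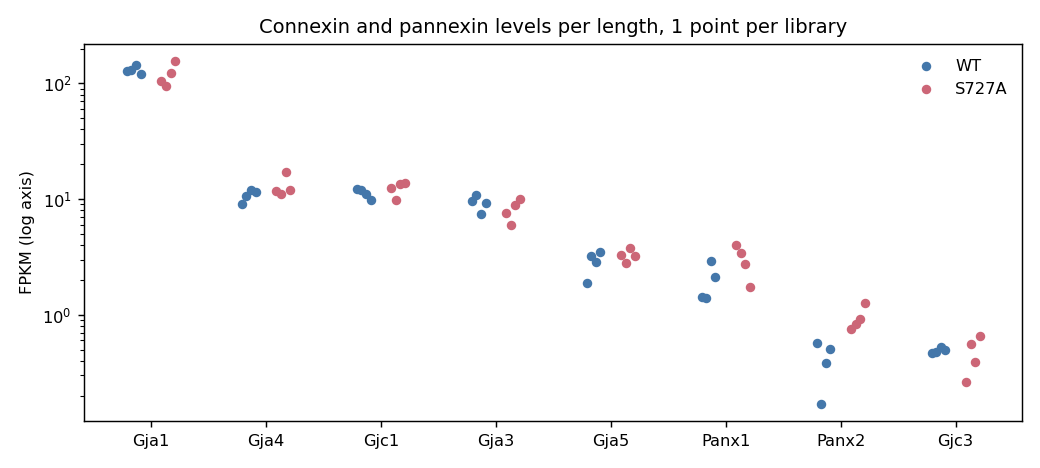
FPKM on a log axis for the 4 heart connexins, Gja3, Gjc3 and the pannexins Panx1 and Panx2, 1 point per library, WT in blue and S727A in red. Gja1 lies above all other genes in every library, Gja4, Gjc1 and Gja3 lie close together, and the points of both genotypes overlap for each of the 4 heart connexins.

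In the annotation on build GRCm38, Gja1 (gene 14609) spans chr10:56377330-56402513 on the plus strand and Gja4 (gene 14612) spans chr4:127311421-127314039 on the minus strand. Gja5 (gene 14613) spans chr3:96904693-97077416 on the plus strand, and Gjc1 (gene 14615) spans chr11:102799579-102819700 on the minus strand. The coding sequence of Gja1, Gja4 and Gjc1 lies in 1 exon in all annotated coding transcripts, with the upstream exons untranslated. The longest coding frames hold 382 codons in Gja1, 333 in Gja4, 368 in Gja5 and 396 in Gjc1. Counts of the 4 genes were whole numbers in all 8 libraries, so no fractional share of reads was assigned to them. Gja5 alone overlaps other genes, all on the opposite strand, among them Gpr89 over 654 bases. The kit kept strand, but no source used here says whether the counting used it.

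Because STAT3 is the factor mutated in these mice, the 250 bases before the RefSeq start of each gene are shown (RefSeq, GRCm38.p6, sense strand of the gene), for the 3 members whose promoter was at hand. Capitals mark the matches to the motifs searched on both strands. The nearest GENCODE transcript start lies 30 bases downstream of the RefSeq start for Gja1 and 14 for Gja5, and at the same base for Gja4. Other coding transcripts start elsewhere, 32 to 1788 bases downstream of the RefSeq start in Gja1 and 127709 bases upstream of it in Gja5, so the windows are not the only promoters annotated.

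Gja1, chr10:56377050-56377299, plus strand: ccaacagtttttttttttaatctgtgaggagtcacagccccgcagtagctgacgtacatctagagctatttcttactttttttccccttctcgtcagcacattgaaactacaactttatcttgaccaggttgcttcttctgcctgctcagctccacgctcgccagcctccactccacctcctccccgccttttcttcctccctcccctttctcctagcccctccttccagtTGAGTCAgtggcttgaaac
Gja4, chr4:127314040-127314289, minus strand: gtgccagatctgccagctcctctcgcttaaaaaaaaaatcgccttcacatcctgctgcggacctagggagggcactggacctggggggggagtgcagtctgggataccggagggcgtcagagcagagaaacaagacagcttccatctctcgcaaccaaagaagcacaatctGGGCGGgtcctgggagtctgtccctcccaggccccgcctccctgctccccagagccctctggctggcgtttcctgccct
Gja5, chr3:97032152-97032401, plus strand: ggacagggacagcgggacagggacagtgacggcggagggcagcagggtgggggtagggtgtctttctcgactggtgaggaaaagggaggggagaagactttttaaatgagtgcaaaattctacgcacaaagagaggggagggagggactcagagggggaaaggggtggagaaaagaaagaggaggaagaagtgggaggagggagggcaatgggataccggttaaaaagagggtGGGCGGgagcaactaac

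The motif TTCNNNGAA, bound by STAT factors, did not occur in any of the 3 windows, and 7.02% of 32851 promoter windows of the same length hold it. The AP-1 motif TGANTCA occurred once, in Gja1, 19 bases before the start (6.75% of windows). The GC box GGGCGG occurred in Gja4, 79 bases before the start, and in Gja5, 17 bases before it (32.7% of windows). The T-box core AGGTGT (11.8% of windows) and the TATA motif TATAAA (12.4%) had no match. No matches overlapped. A match describes these letters only.

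None of the 4 connexins passed the test between genotypes (edgeR quasi-likelihood test, adjusted p under 0.05 over 12998 genes). The same test called 0.146% of all genes (0.0462% as higher in S727A and 0.1% as lower, 19 genes in all), and leaving out single libraries gave 0 to 297 higher and 0 to 320 lower genes, both maxima without S727A 4. DESeq2, which called 4.11% of all genes (2.2% higher, 1.91% lower), called 0 of the 4 connexins as well. So did limma voom, which called 0.0462% of all genes, with 0% higher. In edgeR 0 of the 4 had an unadjusted p under 0.05, where 17.8% of all genes did. The groups overlapped in each of the 4 genes, while 8.43% of all tested genes had no overlap (4.07% with S727A above WT and 4.36% with S727A below). In a whole heart, fewer cells of a type and less RNA per cell cannot be told apart, so each value below is that of the tissue.

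Gja1, which couples the working myocytes, had levels of 324, 296, 375 and 470.5 CPM in mutants 1 to 4. Its levels in WT hearts 1 to 4 were 397, 403, 432.5 and 363 CPM. S727A 1 and 2 lay below all WT libraries, and S727A 4 lay above all of them. Mutant and WT means were 366 ± 76.8 and 399 ± 28.5 CPM (SD, n = 4 each). The log2 fold change was -0.12 ± 0.13 (SE), with a 95% interval from -0.41 to 0.16 (edgeR adjusted p = 0.665). Without S727A 4, one of the libraries with almost no Y-linked reads, it was -0.27 (edgeR adjusted p = 0.154). Without both such libraries it was -0.31 (edgeR adjusted p = 0.124), and without S727A 2 it was -0.03.

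Gja4, the endothelial connexin, had levels of 19.6, 18.4, 27.65 and 19.2 CPM in mutants 1 to 4. Its levels in WT hearts 1 to 4 were 14.8, 17.2, 19.2 and 18.5 CPM. S727A 3 stood apart as the highest of all, and the other S727A libraries were close to WT 3 and 4. The mean was 21.2 ± 4.31 CPM against 17.4 ± 1.96 CPM (SD, n = 4 each). The log2 fold change of 0.28 ± 0.14 (SE), with a 95% interval from -0.04 to 0.59, was the largest among the 4 genes (edgeR adjusted p = 0.336). Without S727A 3 it was 0.13 (edgeR adjusted p = 0.666).

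Gja5, the connexin of atria, conduction system and arterial endothelium, had levels of 10.35, 8.81, 11.7 and 9.71 CPM in mutants 1 to 4. Its levels in WT hearts 1 to 4 were 5.85, 9.92, 8.64 and 10.5 CPM. WT 1 was low, and the remaining WT libraries lay within or close to the range of S727A. The mean was 10.1 ± 1.21 CPM against 8.73 ± 2.08 CPM (SD, n = 4 each), on 61 to 135 counts per library. The log2 fold change was 0.21 ± 0.18 (SE), with a 95% interval from -0.18 to 0.60 (edgeR adjusted p = 0.571). Without WT 1 it was 0.06 (edgeR adjusted p = 0.888).

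Gjc1, the connexin of nodes and conduction system, had levels of 25.6, 20.3, 27.0 and 26.9 CPM in mutants 1 to 4. Its levels in WT hearts 1 to 4 were 24.3, 24.2, 22.0 and 20.02 CPM. S727A 1, 3 and 4 lay above all WT libraries, and S727A 2 lay among the lowest WT values. The mean was 24.96 ± 3.15 CPM against 22.6 ± 2.07 CPM (SD, n = 4 each). The log2 fold change was 0.14 ± 0.12 (SE), with a 95% interval from -0.11 to 0.39 (edgeR adjusted p = 0.548). Without S727A 2 it was 0.23 (edgeR adjusted p = 0.401), and with S727A 4 and WT 4 both left out it was 0.05. Gjc1 lies 1.86 Mb from Stat3 on chromosome 11. Of the 86 tested genes within 2 Mb of Stat3, with Gjc1 counted and Stat3 not, 42 had a smaller p than Gjc1 (48.8%). Among all tested genes 44.4% did.

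**Figure D2:**
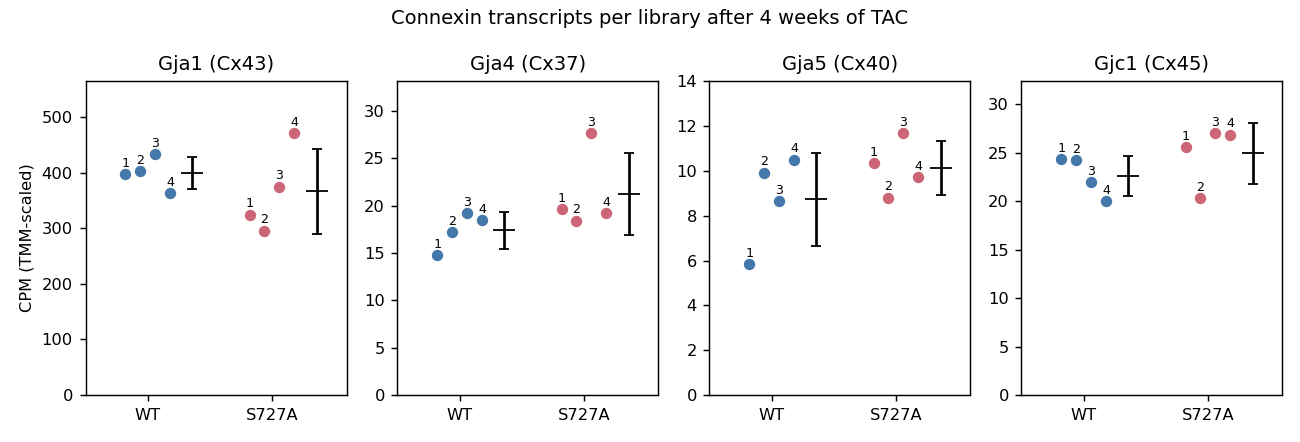
TMM-scaled CPM of the 4 connexin genes, 1 numbered point per library, with the group mean and SD as bars at the right of each group. The genotypes overlap in all panels, S727A 4 is highest for Gja1, S727A 3 is highest for Gja4 at 27.65 CPM, and WT 1 is lowest for Gja5 at 5.85 CPM.

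The authors' deposited table gives log2 ratios of -0.12 for Gja1, 0.28 for Gja4, 0.21 for Gja5 and 0.14 for Gjc1. The q-values in the authors' deposited table are 0.839, 0.467, 0.765 and 0.763 in the same order.

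The makeup of the connexin transcripts was then described as the share of each gene in the summed FPKM of the 4. Gja1 made up 79.1%, 80.0%, 78.2% and 84.4% of the sum in mutants 1 to 4, and 84.8%, 83.6%, 84.75% and 83.0% of it in WT hearts 1 to 4. S727A 1 to 3 were below all WT libraries and S727A 4 was within the WT range. Mean shares of Gja1 were 80.4% ± 2.74 for mutants and 84.05% ± 0.892 for WT (SD, n = 4 each). The mean share of Gja4 was 8.89% ± 1.83 against 6.90% ± 0.813, and that of Gjc1 was 8.43% ± 0.838 against 7.21% ± 0.707 (SD, n = 4 each). Gja5 made up 2.26% ± 0.355 against 1.84% ± 0.496 (SD, n = 4 each). The shares are tied to each other by their sum and were not tested, since the members were chosen with results of these data known.

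**Figure D3:**
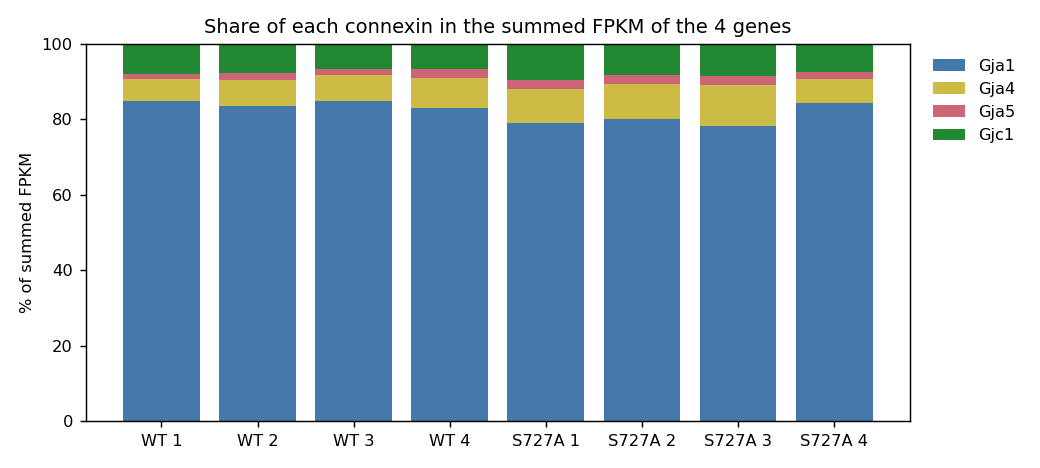
Stacked bars of each connexin's percentage of the summed FPKM of the 4 genes, 1 bar per library. Gja1 takes 78.2% to 84.8% everywhere, and its bar is shortest in S727A 1 to 3.

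Ratios between members showed the same libraries. The FPKM ratio of Gja1 to Gjc1 was 8.34, 9.69, 9.15 and 11.3 for mutants 1 to 4, with 10.6, 11.0, 13.0 and 12.3 for WT hearts 1 to 4. The S727A libraries were lower except S727A 4, which lay above WT 1 and WT 2. The FPKM ratio of Gja4 to Gja5, both found in endothelium but Gja5 also in myocytes, averaged 3.93 ± 0.405 for mutants and 3.90 ± 0.742 for WT (SD, n = 4 each). This difference was far within the spread. Neither ratio was tested.

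The other connexins were mostly at the edge of detection. Gja3 and Gjc3 passed the filter on low counts, and neither was called by edgeR, DESeq2 or limma voom or had an unadjusted p under 0.05 in edgeR. Gja3, which encodes Cx46 and is best known from the eye lens, was the more abundant. Its FPKM was 7.62, 5.91, 8.81 and 9.94 for mutants 1 to 4, with 9.64, 10.9, 7.39 and 9.21 for WT hearts 1 to 4. It lay above Gja5 in all 8 libraries and below Gjc1 in all 8, both in FPKM. Its log2 fold change was -0.18 ± 0.16 (SE, edgeR adjusted p = 0.586). For Gja3 it was -0.06 without S727A 2 and -0.29 without S727A 4. Gjc3, known from the myelinating glia, was low, with 0.465 ± 0.174 FPKM for mutants and 0.495 ± 0.0265 for WT (SD, n = 4). The log2 fold change of Gjc3 was -0.07 ± 0.30 (SE), with an adjusted p of 0.926 in edgeR. A further 9 connexin genes held 0 to 14 counts per library, with Gjb5 at the upper end.

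Pannexins form membrane channels related in topology to connexin channels but build no gap junctions in most tissues. Panx2 had an FPKM of 0.75, 0.83, 0.91 and 1.27 for mutants 1 to 4, with 0.57, 0.17, 0.38 and 0.51 for WT hearts 1 to 4. All S727A libraries lay above all WT libraries, on 6 to 39 counts each. The log2 fold change was 0.98 ± 0.31 (SE) and did not pass (edgeR adjusted p = 0.158). Panx1, the widely expressed pannexin, had a log2 fold change of 0.63 ± 0.30 (SE), which did not pass either (edgeR adjusted p = 0.297). Panx1 averaged 2.98 ± 0.966 FPKM for mutants and 1.96 ± 0.709 for WT (SD, n = 4), and the groups overlapped. DESeq2 and limma voom called 0 of the 2 pannexins.

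**Figure D4:**
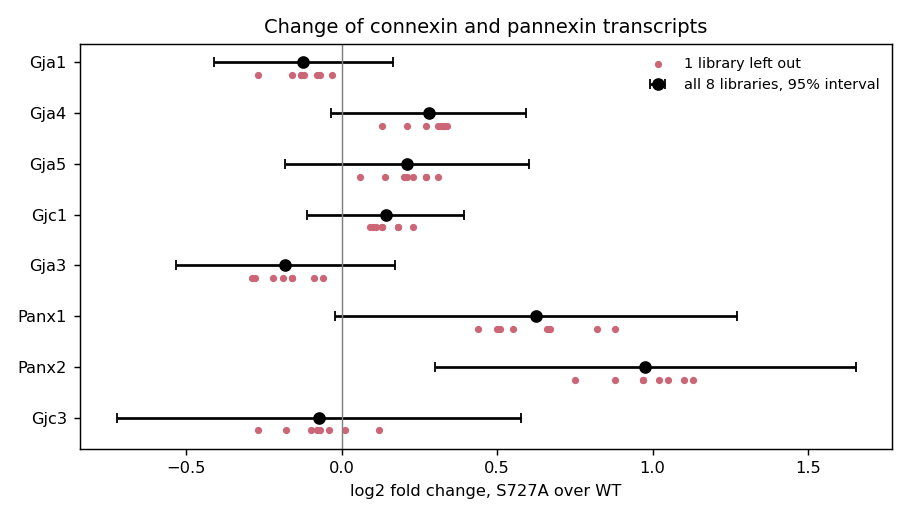
Log2 fold change of S727A over WT for the 4 heart connexins, Gja3, Gjc3 and the pannexins Panx1 and Panx2, black points with 95% intervals from edgeR and red points for fits without 1 library. Panx2 alone has an interval above 0, and its adjusted p is 0.158. For the 4 heart connexins every red point keeps the sign of the black one.

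Genes that act on connexins were counted next, by lists, to be read against the shares of all genes that DESeq2 called (4.11%) and that had an unadjusted p under 0.05 in edgeR (17.8%). Of 28 tested scaffold and trafficking genes of the junction, 0 were called by edgeR or limma voom and 3 by DESeq2 (2 higher, 1 lower), and 9 had an unadjusted p under 0.05 in edgeR (5 higher, 4 lower). Their median log2 fold change was -0.02, against -0.003 over all tested genes. The members of smallest p were Cav3, the muscle caveolin, with a log2 fold change of 0.43 ± 0.11, and Xirp1, an actin-binding protein of the disc, with 0.47 ± 0.13 (SE, edgeR adjusted p of 0.119 and 0.130). Ank2, the adaptor ankyrin-B, had a log2 fold change of -0.53 ± 0.15, and the plakophilin gene Pkp2 of the desmosome had 0.29 ± 0.10 (SE, edgeR adjusted p of 0.138 and 0.178).

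Among 17 tested kinases and phosphatases with connexins as known substrates or partners, 0 were called by edgeR or limma voom and 1 by DESeq2, and 4 had an unadjusted p under 0.05 in edgeR, all higher. The median log2 fold change was 0.15. Cdk1, a mitotic kinase that phosphorylates Cx43, averaged 5.27 ± 1.75 CPM for mutants and 1.38 ± 0.942 for WT (SD, n = 4). This is a log2 fold change of 1.89 ± 0.41 (SE), with an adjusted p of 0.0992 in edgeR. The kinase gene Akt1 had a log2 fold change of 0.37 ± 0.11, the phosphatase gene Ppp1ca of 0.21 ± 0.09 and the casein kinase gene Csnk1a1 of 0.20 ± 0.09 (SE). Their edgeR adjusted p were 0.153, 0.230 and 0.277.

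Of 22 tested regulators of connexin genes, 0 were called by edgeR or limma voom and 1 by DESeq2, and 7 had an unadjusted p under 0.05 in edgeR (6 higher, 1 lower), with a median log2 fold change of 0.08. Jun, a subunit of AP-1, whose motif stands in the Gja1 window above, was at 156 ± 24.5 CPM against 121 ± 10.4 CPM (SD, n = 4). Its log2 fold change was 0.36 ± 0.12 (SE, edgeR adjusted p = 0.159), and all S727A libraries lay above all WT libraries. The homeobox genes Irx3 and Irx5, which act on connexin genes of the conduction system and ventricle in mice, had log2 fold changes of 0.58 ± 0.22 and 0.53 ± 0.18 (SE). The flow-responsive endothelial factor gene Klf2 had 0.54 ± 0.19 (SE). The edgeR adjusted p of Irx3, Irx5 and Klf2 were 0.216, 0.183 and 0.195.

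Markers of the cells that make these connexins were set beside the members. The arterial endothelium list summed to 618 to 787 CPM in S727A and 507 to 712 CPM in WT, with WT 1, also the lowest library for Gja4 and Gja5, at the bottom. Of its 16 tested genes 0 were called by edgeR, DESeq2 or limma voom, 4 reached an unadjusted p under 0.05 with edgeR, and the median log2 fold change was -0.01. Jag1, a Notch ligand, was at -0.47 ± 0.15 and Sox17, an arterial transcription factor, at 0.45 ± 0.19 (log2 fold change, SE, edgeR adjusted p of 0.155 and 0.249). Unc5b, a receptor of arterial tip cells, was at 0.30 ± 0.13 and the fibulin gene Fbln2 at 0.34 ± 0.15 (log2 fold change, SE, edgeR adjusted p of 0.249 and 0.278). With the mean of the pan-endothelial list as a covariate the log2 fold change of Gja4 was 0.23, and with the arterial list, a covariate added after the data were seen, it was 0.28, against 0.28 without a covariate. The pan-endothelial list summed to 1833 to 1961 CPM for mutants and 1816 to 2064 for WT, with a median log2 fold change of -0.02 over 15 tested genes. Among these 0 were called by edgeR, DESeq2 or limma voom, and 1, the tight junction gene Cldn5, had an unadjusted p under 0.05 in edgeR. Cldn5 was at 1.31 ± 0.45 (log2 fold change, SE, edgeR adjusted p of 0.200), a value that was 0.80 without S727A 3, the library where Gja4 was highest. The sum of the whole pan-endothelial list in S727A 3 was 1961 CPM, against 1937 CPM in S727A 1 and 2064 CPM in WT 4. The angiopoietin receptor gene Tek was at -0.20 ± 0.10 (log2 fold change, SE, edgeR adjusted p of 0.332). The capillary and the venous and endocardial lists had medians of 0.05 and -0.04 over 11 and 9 tested genes. In edgeR and limma voom 0 genes of either were called, DESeq2 called 2 and 0 (4.11% of all genes), and 3 of each had an unadjusted p under 0.05 in edgeR (17.8% of all genes). In the capillary list the glycerol channel gene Aqp7 was at -0.84 ± 0.22 and Gpihbp1, which anchors lipoprotein lipase, at 0.59 ± 0.16 (log2 fold change, SE, edgeR adjusted p of 0.127 and 0.135). In the venous and endocardial list the adhesion gene Vcam1 was at 0.34 ± 0.11 and the cell junction gene Cgnl1 at -0.34 ± 0.13 (log2 fold change, SE, edgeR adjusted p of 0.152 and 0.198).

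The atrial list varied between libraries, with sums of 2305 to 4030 CPM in S727A and 776 to 2652 CPM in WT, and its median log2 fold change was -0.67 over 9 tested genes. The sums, carried by the most abundant genes, thus tended the other way from the median gene. Its highest sum was in S727A 3 and its lowest in WT 1, the libraries where Gja5 was highest and lowest. Between these extremes the order was not kept. S727A 2 had an atrial sum of 2906 CPM with Gja5 at 8.81 CPM, and WT 4 had a sum of 1390 CPM with Gja5 at 10.5 CPM. Kcnj3 and Stard10 had log2 fold changes of -0.77 ± 0.21 and -0.73 ± 0.24 (SE, edgeR adjusted p of 0.136 and 0.173). With the atrial list as a covariate the log2 fold change of Gja5 was 0.41 (edgeR adjusted p = 0.416). That covariate was the mean log2 CPM over the tested genes of the list, not the sum. This mean ran from 5.13 to 5.67 in S727A and from 5.11 to 6.29 in WT. The conduction system list summed to 174 to 254 CPM in S727A and 203 to 254 CPM in WT, with a median log2 fold change of -0.38 over 15 tested genes. Of these genes 4 had a fold above 0, and the members of smallest p went opposite ways. The pacemaker channel gene Hcn2 was at -0.56 ± 0.13 (log2 fold change, SE, edgeR adjusted p of 0.106). Irx3, also in the regulator list, was at 0.58 ± 0.22 (log2 fold change, SE, edgeR adjusted p of 0.216). In edgeR and limma voom 0 genes of either list were called. In edgeR 3 atrial and 5 conduction genes had an unadjusted p under 0.05 (17.8% of all genes). DESeq2 called 3 atrial genes and 1 conduction gene, all as lower, where it called 4.11% of all genes (1.91% as lower).

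Myocyte genes had a median log2 fold change of 0.04 over 14 tested members, with the myosin-binding protein gene Mybpc3 at 0.33 ± 0.10 and the calcium release channel gene Ryr2 at -0.31 ± 0.11 (SE, edgeR adjusted p of 0.154 and 0.180). With the mean log2 CPM of this list as a covariate Gja1 stayed at -0.12. Smooth muscle and pericyte genes, of which 1 of 12 had a fold above 0, had a median of -0.27, with Acta2 at -0.80 ± 0.17 and Kcnj8 at -0.35 ± 0.09 (SE, edgeR adjusted p of 0.0992 and 0.119). Fibroblast genes had a median log2 fold change of 0.25 over 11 tested members and sums of 4200 to 4649 CPM in S727A against 3103 to 4500 CPM in WT. The collagen receptor gene Ddr2 was at -0.35 ± 0.10 and the collagen gene Col3a1 at 0.62 ± 0.20 (log2 fold change, SE, edgeR adjusted p of 0.135 and 0.173). In these 3 lists edgeR and limma voom called 0 genes, and DESeq2 called 1, 3 and 2 (4.11% of all genes), while 3, 8 and 5 had an unadjusted p under 0.05 in edgeR (17.8% of all genes). Macrophage genes had a median of -0.53 over 10 tested members, and the hypertrophy list had 0.80 over 8. In both edgeR and limma voom called 0 genes, DESeq2 called 4 lower and 2 higher, and 6 and 4 had an unadjusted p under 0.05 in edgeR. The macrophage receptor genes Csf1r and Cd163 were at -0.63 ± 0.13 and -0.80 ± 0.18 (log2 fold change, SE, edgeR adjusted p of 0.0902 and 0.0992). The muscle LIM protein gene Csrp3 and the calcineurin regulator gene Rcan1 of the hypertrophy list were at 0.58 ± 0.12 and 0.80 ± 0.26 (log2 fold change, SE, edgeR adjusted p of 0.0984 and 0.182). Of the airway list 2 genes were tested, with 0 called by edgeR or limma voom, 1 by DESeq2 and 1 below an unadjusted p of 0.05, and a median of -0.79. These were the mucin gene Muc1 at -1.70 ± 0.37 and the keratin gene Krt18 at 0.11 ± 0.23 (log2 fold change, SE, edgeR adjusted p of 0.0984 and 0.837). The part of fibroblasts, macrophages, smooth muscle and atrial tissue in the connexin levels was not tested beyond the covariates named.

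**Figure D5:**
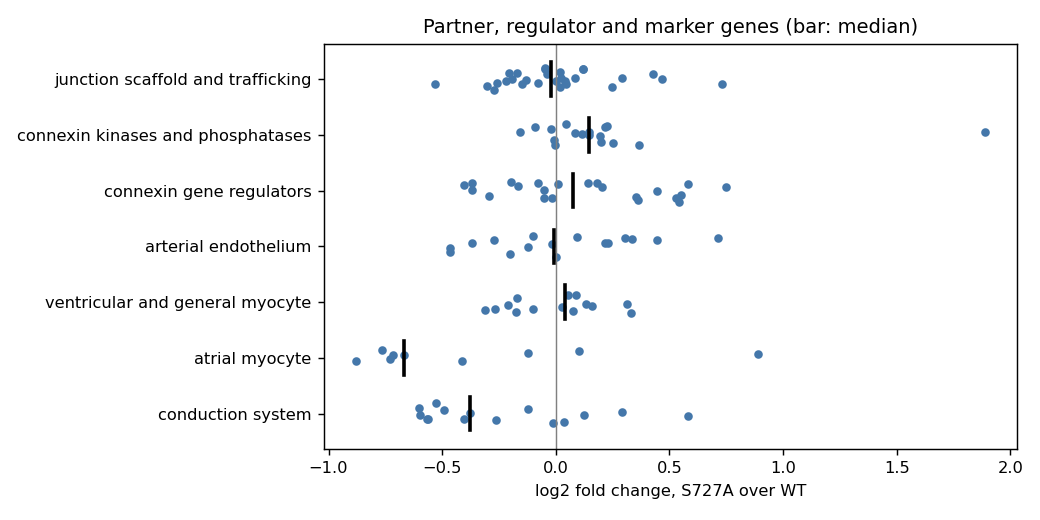
Log2 fold change of S727A over WT for each tested gene of 7 lists, with a black bar at the list median. Scaffold genes, regulators and arterial markers lie on both sides of 0. The atrial and conduction lists do so too, with medians of -0.67 and -0.38. In them 2 of 9 and 4 of 15 genes lie above 0.

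Genes whose levels followed each connexin most closely were sought by Pearson's r of log2 CPM over the 8 libraries after subtraction of each group's mean, among 9434 genes. With so few libraries such maxima over so many genes are a description only. Gja1 was followed by Gbp9 (r = 0.969), Gbp4 (r = 0.963), both interferon-inducible GTPases, and Wdfy2 (r = 0.955). Gja4 was followed by the cardiac T-box factor gene Tbx20 (r = 0.964), Cpne1 (r = 0.936) and the adaptor gene Nck2 (r = 0.928). Gja5 was followed by Ube2a (r = 0.936), Fhl2 (r = 0.921), a LIM protein of the sarcomere, and Phactr4 (r = 0.919). Gjc1 was followed by Arhgap18 (r = 0.993), the protocadherin gene Pcdh17 (r = 0.976) and Zfp462 (r = 0.975). Adjusted p between genotypes in edgeR ran from 0.168 to 0.978 for these 12 genes.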

How the data were processed

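The deposited table held estimated counts per gene and library (6.06% to 7.62% of entries not whole, tolerance 1e-06), per the file headers and values. Further columns hold FPKM values, group means and, from the authors' own comparison, a log2 ratio, p-value and q-value per gene. HISAT2, Bowtie2, FastQC and build GRCm38.p6 are named in the submitters' processing notes, and no source used here gives the counting tool. The length implied by counts and FPKM followed the annotated transcript length over 10848 genes (Spearman's rho 0.856). Annotated lengths were looked up by the Ensembl gene identifier of each row, so values and these identifiers belong together. Members and lists were picked by symbol, which this check did not use. The descriptive text columns did not match the symbol for many genes and were not used.

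Counts were rounded, filtered with filterByExpr defaults (12998 genes kept), TMM-normalized and tested with edgeR 4.0.16 in R 4.3.3 (robust quasi-likelihood F test, legacy mode, two-sided, genotype as the only term), with Benjamini-Hochberg adjustment over all genes kept. Alternatives used limma 3.58.1, DESeq2 1.42.0, other filters, covariates and library sets. Coordinates came from GENCODE M21 and promoters from RefSeq, both GRCm38. The procedure was tested on simulated data.

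The members and lists were chosen with earlier results of these data known. Named were the members, Stat3, further connexins and pannexins (1 gene is not reported here), up to 4 called genes per list or else the 2 of smallest p (4 in the scaffold, kinase, regulator and arterial lists), and the 3 genes closest in pattern to each member (mean log2 CPM of at least 3). The counts of every pair of libraries differed by more than sampling noise (chi-square per degree of freedom of at least 9.13).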

Additional observations from a re-analysis of the deposited data

Results flagged for a closer look

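Gja4 in S727A 3, at 27.65 CPM, was far from the other S727A libraries, which lay between 18.4 and 19.6 CPM. The summed Y-linked CPM was 0.699 in S727A 4, against 158 to 182 in the other S727A libraries, and 0.467 in WT 4, against 163 to 186 in the other WT libraries. Of 64 groups of 4 libraries examined in this way 3 were flagged, where chance flags about 1 in 20. That rate bears on the number of flags and not on the size of a gap. The Y-linked flags are the near absence of these reads in S727A 4 and WT 4 described above.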

How the results depend on the processing

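Gja1 stayed below 0 and Gja4, Gja5 and Gjc1 above 0 in all 25 alternatives run, and none passed the threshold. Log2 fold changes ran from -0.31 to -0.03 for Gja1, 0.13 to 0.35 for Gja4, 0.06 to 0.41 for Gja5 and 0.05 to 0.23 for Gjc1, with lowest adjusted p of 0.124, 0.241, 0.363 and 0.401. With the replicate number as a block the values were -0.14, 0.27, 0.23 and 0.14. Same-numbered libraries did not deviate together (correlations of -0.0518, -0.102, 0.0646 and 0.0707 for numbers 1 to 4). With so few libraries this cannot settle whether the numbers pair them, and the labels do not say.

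The number of genes called over the whole table, 6 higher and 13 lower, moved far more, and the cause was not tested. It was 11 higher with no filter, 286 and 248 in DESeq2, 0 and 6 in limma voom, and 0 and 2 with the replicate block. With covariates it was 1 higher (pan-endothelial), 79 and 66 (myocyte), 3 and 8 (atrial) and 8 lower (Y-linked). On FPKM it was 1 and 5 with a pseudocount of 1, 1 and 3 with 0.1, and 0 and 0 with no filter. It was 107 and 135 with S727A 4 and WT 4 left out, and 0 and 0 with WT 1 and WT 4 left out. Leaving out single libraries gave 0 to 297 higher and 0 to 320 lower, the maxima without S727A 4 (164 and 111 without WT 3), and 0 in both directions without S727A 1, S727A 3 or WT 1. Among other genes Gjc3 ran from -0.27 to 0.12 when single libraries were left out, above 0 without S727A 1 and, at 0.01, without S727A 3. Krt18 of the airway list ran from -0.02 (without WT 4) to 0.26 and was -0.04 with the atrial covariate. Of the members, Stat3 and the genes chosen from the lists by the naming rule, DESeq2 called 18 and did not call 29, where edgeR called 0. DESeq2 called 4.11% of all genes. Most of these genes were chosen for a small p in the same data, so a high count follows from the choice. Gja5 rests on 61 to 135 counts per library, which limits its precision.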
